A study of Mus musculus with 6 samples.

Results

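Genes for sensing RNA and DNA in the cytosol were followed in RNA-seq counts from mouse macrophages treated with MSU, monosodium urate, whose crystals form in gouty joints. The group was chosen by gene symbol, with 7 of the 54532 listed genes as members: Ddx58, Ifih1, Dhx58, Mavs, Tbk1, Ikbke and Trex1. It was chosen with earlier results of these data known, so counts of members called are description and no test. Bone marrow had been grown into macrophages, and 3 libraries carried the label Tet2 knockout and 3 the label wild-type, all of them MSU-treated, so no untreated cells enter any comparison. The product of Tet2 oxidises the methyl mark on DNA cytosines. The Tet2 allele, the cell type in which it was deleted, the age and number of mice and the dose and time of MSU are not given in the sources used here. Whether replicates stem from different animals or dishes is not stated, and the p-values therefore reflect library-to-library spread that may be technical.

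Cytosolic sensing begins with helicases that bind viral or misplaced RNA. RIG-I (gene Ddx58) and MDA5 (gene Ifih1) carry signalling domains and pass the signal to MAVS, an adaptor on the outer mitochondrial membrane, while LGP2 (gene Dhx58) is a related helicase that lacks those domains and modulates the other two. MAVS, like the DNA-sensing adaptor STING, engages the kinases TBK1 (gene Tbk1) and IKK-epsilon (gene Ikbke), which phosphorylate the transcription factors that switch on type I interferon. TREX1 (gene Trex1) is the exonuclease that removes DNA from the cytosol and so limits DNA sensing. The 3 helicase genes are themselves well-known interferon-induced genes in macrophages.

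The start regions of 4 members are shown because they belong to the signalling helicases (Ddx58 and Ifih1) and to the kinase pair whose differences were unequal (Ikbke and Tbk1). Each window runs from 250 bases before to 50 bases after the RefSeq start (GRCm38.p6), written 5′ to 3′ on the strand of the gene. Capitals mark matches, on either strand, to the core of the interferon-stimulated response element (GAAA, 2 bases of any kind, GAAA) and to a closer-spaced form with 1 base between (GAAANGAAA), which was added after the windows had been seen.
Ddx58 promoter window, chr4:40239776-40240075, minus strand: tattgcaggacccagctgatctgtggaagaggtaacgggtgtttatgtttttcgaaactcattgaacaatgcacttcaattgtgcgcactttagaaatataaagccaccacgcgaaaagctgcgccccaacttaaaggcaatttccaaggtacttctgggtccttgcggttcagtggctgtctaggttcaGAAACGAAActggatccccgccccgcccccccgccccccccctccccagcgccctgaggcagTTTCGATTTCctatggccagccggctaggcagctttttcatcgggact
Ifih1 promoter window, chr2:62646206-62646505, minus strand: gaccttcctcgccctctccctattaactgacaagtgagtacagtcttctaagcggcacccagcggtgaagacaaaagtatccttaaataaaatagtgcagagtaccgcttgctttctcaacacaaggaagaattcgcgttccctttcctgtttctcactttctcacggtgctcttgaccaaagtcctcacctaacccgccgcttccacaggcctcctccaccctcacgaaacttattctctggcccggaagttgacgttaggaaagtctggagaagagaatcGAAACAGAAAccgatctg
Ikbke promoter window, chr1:131279514-131279813, minus strand: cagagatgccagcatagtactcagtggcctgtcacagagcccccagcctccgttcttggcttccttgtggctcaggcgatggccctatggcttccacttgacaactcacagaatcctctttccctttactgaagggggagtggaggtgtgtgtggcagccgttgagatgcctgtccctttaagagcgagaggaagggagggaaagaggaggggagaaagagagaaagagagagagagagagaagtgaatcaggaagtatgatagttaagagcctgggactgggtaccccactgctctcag
Tbk1 promoter window, chr10:121586745-121587044, minus strand: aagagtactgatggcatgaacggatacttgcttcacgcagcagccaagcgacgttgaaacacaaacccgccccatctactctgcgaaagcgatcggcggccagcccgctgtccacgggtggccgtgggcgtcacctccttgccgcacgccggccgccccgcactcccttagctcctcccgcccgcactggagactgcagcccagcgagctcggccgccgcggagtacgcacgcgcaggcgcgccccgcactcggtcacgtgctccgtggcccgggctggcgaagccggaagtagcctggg
The response element core was found in 2 of 7 windows of the members, those of Ddx58 and Ifih1, and in 3.44% of all 32851 windows of that length. In Ddx58 it reads TTTCGATTTC and begins at base 3 after the start, and in Ifih1 it reads GAAACAGAAA and begins at base 33. The closer-spaced form, which overlaps neither of these matches, begins 60 bases before the Ddx58 start and occurs in 3.17% of all windows. The interferon-gamma element core TTCNNNGAA occurs in 8.30% of all windows and in none of the members' windows. Those windows covered Ddx58, Ifih1, Mavs, Tbk1, Ikbke and, with 2 starts, Trex1. No window was available for Dhx58, which was therefore not searched. These are matches of letters and say nothing of binding.

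Total counts ran from 11997104 to 14481843 reads per library. Tet2, read as a check of the labels, stood at 33.7 ± 0.799 CPM across knockout-labelled libraries and 29.3 ± 1.41 CPM across wild-type-labelled ones (SD, n = 3 each; log2 difference 0.20, SE 0.07; edgeR adjusted p = 0.0159), so the targeted gene was not lower and every direction below is that of the label. Its call was lost in 5 of 16 alternatives (edgeR, DESeq2 or limma-voom adjusted p from 0.0143 to 0.350). The macrophage genes Adgre1 and Csf1r, which encode F4/80 and the CSF1 receptor, were abundant and differed by 0.78 and 0.55 on the log2 scale, and the summed macrophage list of 8 genes ran from 5903 to 6173 CPM in the knockout-labelled libraries and from 5662 to 6029.5 CPM in the wild-type-labelled ones, with 4 genes higher and 3 lower. A fibroblast list of 8 genes, with the collagen gene Col1a1 at its head, summed to between 6646 and 6807 CPM in the knockout-labelled libraries and between 6950.1 and 7428 CPM in the wild-type-labelled ones, with 1 gene higher and 5 lower. In every library the fibroblast sum lay above the macrophage sum, and bulk counts cannot assign the members' reads to a cell type. The T and NK cell list summed to 11.0 to 12.6 CPM under the knockout label and 3.30 to 4.17 CPM under the wild-type label, nearly all of it Cd4 (168, 175 and 146 reads under the knockout label and 47, 39 and 54 under the wild-type label), the only 1 of its 8 genes that could be tested. Cd3d, Cd3g and Trbc1 were at 0 in every library. The conventional dendritic cell list summed to 15.2 to 17.9 CPM under the knockout label and 33.4 to 38.8 CPM under the wild-type label, with Cd209a at 0. Of its 4 tested genes Itgax was lower (log2 difference -1.71) and Xcr1 higher (1.06). The plasmacytoid list summed to 409 to 423 CPM under the knockout label and 439.5 to 456 CPM under the wild-type label, with Siglech and Klk1 at 0. Of its 3 tested genes Bst2, which makes up most of the sum, was lower (log2 difference -0.14) and Spib higher (0.92). The endothelial list summed to 129 to 135 CPM under the knockout label and 90.3 to 95.7 CPM under the wild-type label, with Vwf and Kdr higher among 4 tested genes. The mast cell list summed to 10.6 to 12.6 CPM under the knockout label and 6.77 to 8.06 CPM under the wild-type label, with Fcer1a, Ms4a2 and Prss34 at 0. Of its 3 tested genes Hdc was higher (log2 difference 1.89) and Gata2 lower (-0.76). Mitochondrially encoded genes took 0.349 to 0.366% of reads under the knockout label and 0.240 to 0.275% under the wild-type label. The part of these shifts in the results was not tested, and in bulk RNA fewer cells of a type cannot be told apart from less RNA per cell.

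All 6 members that could be tested stood higher under the Tet2 knockout label, where 21.6% of all 13175 tested genes were called higher and 40.9% were called in either direction. The 3 RNA helicase genes and Ikbke formed an upper tier, with levels 27.6 to 35.8% higher, and Tbk1 and Mavs a lower one, with levels 8.83 and 11.4% higher. Their median log2 difference was 0.36, against -0.0031 over all tested genes and a median size (sign dropped) of 0.29 among called genes of either direction. In each of the 6 all 3 knockout-labelled libraries lay above all 3 wild-type-labelled ones, as in 24.8% of all tested genes; groups without overlap in either direction made up 47.8%. None of the 6 had fewer than 535 reads in any library, so the filter on low counts removed none through a low group. Trex1 had no read in any library and could not be tested.

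**Figure D1:**
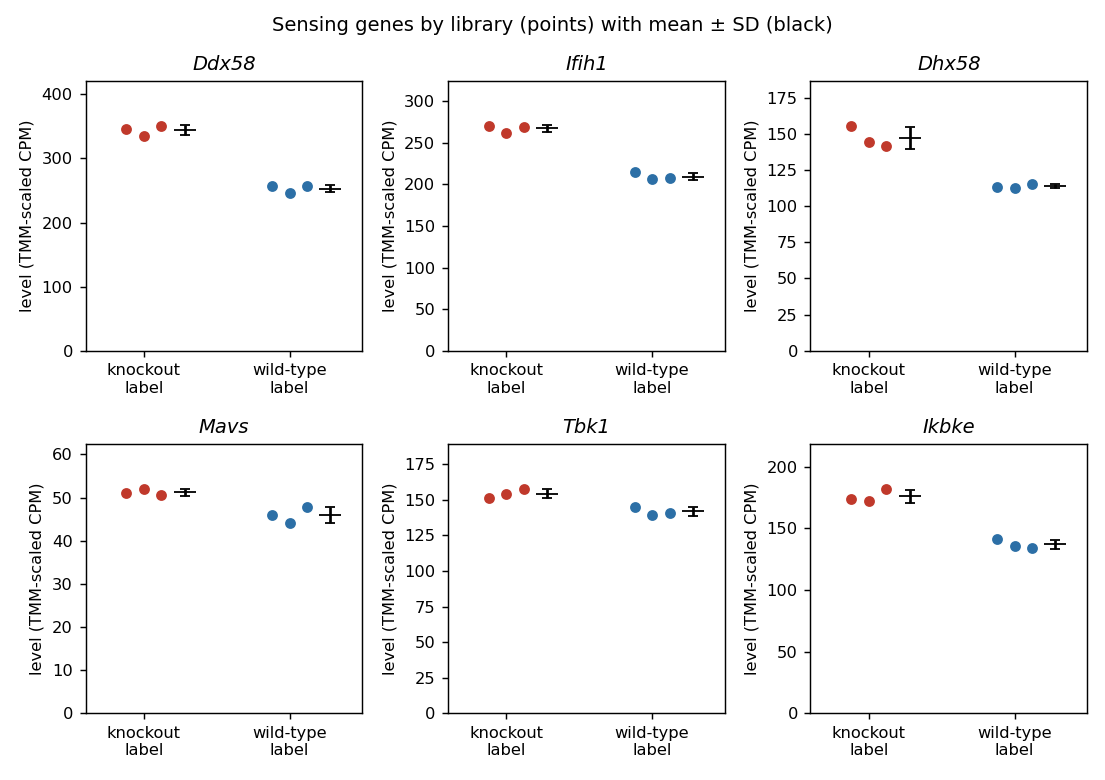
Level of each tested member in TMM-scaled CPM (vertical axis, from 0) in the 3 libraries labelled knockout (red, left) and the 3 labelled wild-type (blue, right), with the mean and SD in black. The groups do not overlap in any of the 6 panels, and the gap is widest for Ddx58 (means of 344 CPM under the knockout label and 253 CPM under the wild-type label) and narrowest in proportion for Tbk1 (154 CPM under the knockout label and 142 CPM under the wild-type label).

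Ddx58 (ENSMUSG00000040296, mm10 chromosome 4, 40203773 to 40239828, minus strand) encodes RIG-I, which recognises short RNA with a triphosphate end. Its level was 345, 335 and 351 CPM in the libraries labelled knockout, against 257, 246 and 256 CPM in the wild-type-labelled ones. Every library of the first label lay well above every library of the second. The means were 344 ± 7.83 CPM under the knockout label and 253 ± 6.22 CPM under the wild-type label (SD, n = 3 each), a log2 difference of 0.44 (SE 0.03, 95% interval 0.38 to 0.50; edgeR adjusted p = 3.90e-26), the largest among the members.

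Ifih1 (ENSMUSG00000026896, chromosome 2, 62595798 to 62646255, minus strand) encodes MDA5, which binds long double-stranded RNA. It stood at 270.2, 262 and 269.6 CPM under the knockout label and at 215, 206 and 207 CPM under the wild-type label. The gap between the labels was several times the spread within either. The log2 difference was 0.35 (SE 0.03, 95% interval 0.29 to 0.41; edgeR adjusted p = 1.89e-18), from means of 267 ± 4.55 CPM in knockout-labelled and 209.5 ± 4.68 CPM in wild-type-labelled libraries (SD, n = 3 each).

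Dhx58 (ENSMUSG00000017830, chromosome 11, 100694884 to 100704271, minus strand) encodes LGP2. In the libraries labelled knockout it was at 155, 144 and 141 CPM, and in the wild-type-labelled ones at 113, 113 and 115 CPM. Replicate 1 of the knockout label was the highest of all and gave this gene the widest spread of the members in proportion to its level, 147 ± 7.41 CPM under the knockout label against 114 ± 1.43 CPM under the wild-type label (SD, n = 3 each). The groups were apart by 0.37 on the log2 scale (SE 0.04, 95% interval 0.29 to 0.44; edgeR adjusted p = 1.21e-14). An antisense gene, Dhx58os, shares 141 of its 3272 exonic bases; that gene had 5, 6 and 8 reads under the knockout label and 3, 1 and 0 under the wild-type label, against at least 1366 reads of Dhx58 in every library. Whether counting used strand is not given, so reads of the 2 genes in the shared bases cannot be told apart.

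Mavs (ENSMUSG00000037523, chromosome 2, 131234063 to 131248025, plus strand) encodes the adaptor on which both signalling helicases converge. Its level was 51.1, 52.1 and 50.6 CPM in the knockout-labelled libraries and 46.0, 44.1 and 47.9 CPM in the wild-type-labelled ones. The lowest library of the first label was above the highest of the second by less than the range within the second. Means of 51.2 ± 0.768 CPM under the knockout label and 46.0 ± 1.88 CPM under the wild-type label (SD, n = 3 each) gave a log2 difference of 0.15 (SE 0.06, 95% interval 0.04 to 0.27; edgeR adjusted p = 0.0224). This call was not stable: it was lost with DESeq2 (DESeq2 adjusted p = 0.0885), with no filter on low counts (edgeR adjusted p = 0.0511), without knockout replicate 2 (0.0786), without wild-type replicate 1 (0.0594) or 2 (0.104), and with an assumed biological coefficient of variation of 0.1 (0.480), in a range from 0.0131 to 0.480 over 16 alternatives.

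Tbk1 (ENSMUSG00000020115, chromosome 10, 121546455 to 121586787, minus strand) encodes the kinase shared by the RNA and DNA branches. Its level was 152, 154 and 158 CPM under the knockout label, against 145, 139 and 141 CPM under the wild-type label. The groups did not overlap, but the difference was the smallest among the members. Knockout-labelled libraries at 154 ± 3.18 CPM and wild-type-labelled ones at 142 ± 3.01 CPM (SD, n = 3 each) differed by 0.12 on the log2 scale (SE 0.04, 95% interval 0.05 to 0.19; edgeR adjusted p = 0.00391). With the assumed coefficient of variation of 0.1 it was not called (edgeR adjusted p = 0.581), and over all 16 alternatives the adjusted p ran from 0.000873 to 0.581.

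Ikbke (ENSMUSG00000042349, chromosome 1, 131254343 to 131279606, minus strand) encodes the inducible relative of TBK1. It stood at 173, 172 and 182 CPM in the knockout-labelled libraries and at 141, 136 and 134 CPM in the wild-type-labelled ones. All 3 libraries of the first label exceeded all 3 of the second by more than the range within either. The means, 176 ± 5.39 CPM under the knockout label and 137 ± 3.78 CPM under the wild-type label (SD, n = 3 each), differed by 0.36 on the log2 scale (SE 0.04, 95% interval 0.29 to 0.43; edgeR adjusted p = 1.15e-15). The antisense genes Gm28913 and Gm28914 share 224 of its 9018 exonic bases and had at most 16 reads in any library, against at least 1647 of Ikbke.

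**Figure D2:**
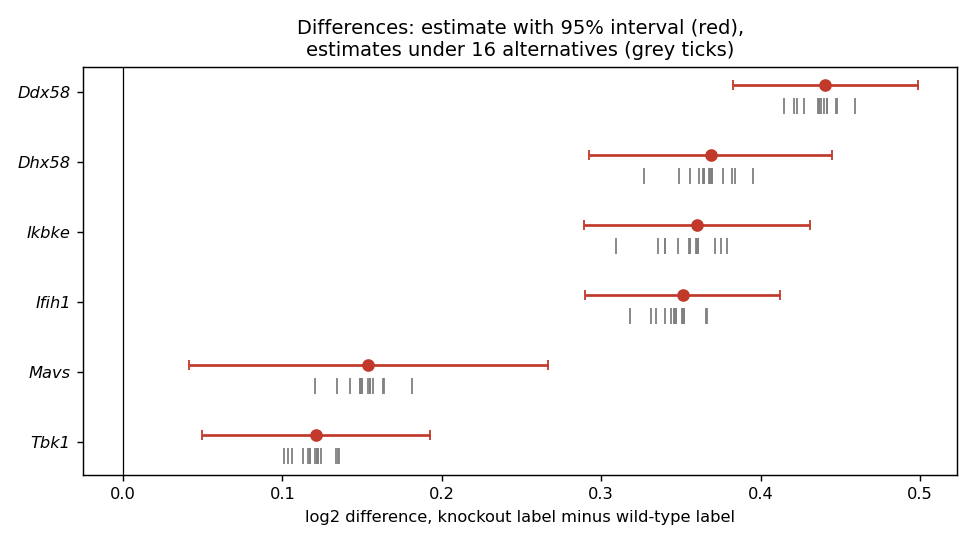
Log2 difference of each tested member, knockout label minus wild-type label (horizontal axis), with its 95% interval in red and the estimates under 16 alternatives as grey ticks. Ddx58, Dhx58, Ikbke and Ifih1 lie between 0.35 and 0.44, Mavs and Tbk1 at 0.15 and 0.12, and no grey tick falls below 0.10.

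Trex1 (ENSMUSG00000049734, chromosome 9, 109057933 to 109059734, minus strand) was listed at 0 reads in all 6 libraries. In the GENCODE M21 annotation all of its 1147 exonic bases are also exonic in Atrip, a gene of the DNA damage checkpoint on the same strand that ends at the same base. Atrip itself had 201, 183 and 160 reads in the knockout-labelled libraries and 236, 182 and 200 in the wild-type-labelled ones (log2 difference -0.24, SE 0.10; edgeR adjusted p = 0.0551). Among protein-coding genes whose exonic bases are all shared with another gene, 155 of 177 (87.6%) were at 0 in every library, against 4968 of 15411 (32.2%) with no shared base. For the 0 of Trex1, absence of its RNA and reads left uncounted in shared bases cannot be told apart in this table, so no level or difference is given for it. Of 54409 listed genes found in GENCODE M21, 98.0% had the same exonic length there as in the deposited table.

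**Figure D3:**
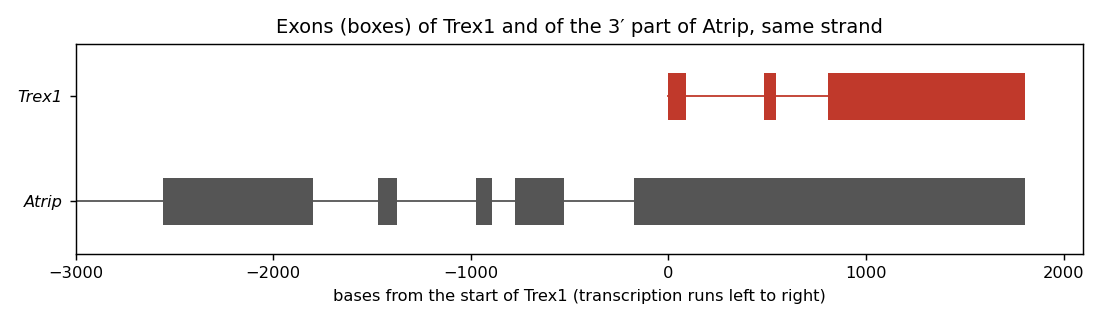
Exons of Trex1 (red boxes) and of the end of Atrip (grey boxes) by distance in bases from the Trex1 start, with transcription running left to right. All 3 Trex1 exons, 1147 bases in all, lie inside the last Atrip exon block.

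Per kilobase of exon, the order of the members differed between the labels. In the libraries labelled knockout the levels were 48.8 ± 1.11 RPKM for Ddx58, 44.9 ± 2.27 for Dhx58, 39.5 ± 0.813 for Tbk1, 32.7 ± 0.558 for Ifih1, 19.5 ± 0.598 for Ikbke and 15.3 ± 0.230 RPKM for Mavs (SD, n = 3 each). Neighbours in that order did not overlap, though Ddx58 and Dhx58 came close, with 47.5 RPKM as the lowest value of Ddx58 and the highest of Dhx58 after rounding. In the libraries labelled wild-type Tbk1 headed the list at 36.3 ± 0.771 RPKM, followed by Ddx58 at 35.9 ± 0.882 and Dhx58 at 34.8 ± 0.437 RPKM (SD, n = 3 each), and these neighbours overlapped. Ifih1, at 25.7 ± 0.573 RPKM, Ikbke, at 15.2 ± 0.419 RPKM, and Mavs, at 13.8 ± 0.561 RPKM, came next in the same order as under the knockout label. The exonic length joins all annotated transcripts of a gene, so a gene with a long rare exon appears lower on this scale.

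Ratios of counts within a library do not depend on scaling between libraries, and 3 of them were computed between members. They are not scaled for exonic length, which is 9018 bases for Ikbke and 3910 for Tbk1. Per kilobase of exon Tbk1 lay above Ikbke under both labels, so more reads of Ikbke than of Tbk1 need not mean more transcripts. Ikbke reads per Tbk1 read were 1.14, 1.12 and 1.15 across knockout-labelled libraries and 0.972, 0.975 and 0.950 across wild-type-labelled ones. Reads of Ikbke outnumbered those of Tbk1 in every library of the first label and in no library of the second, a log2 difference of the ratio of 0.24 (exact two-sided permutation p = 0.1, the smallest that 3 against 3 libraries allow; 0.15 adjusted over the 3 ratios computed). The ratio of Ifih1 to Ddx58 was 0.783, 0.782 and 0.769 under the knockout label, against 0.837, 0.839 and 0.808 under the wild-type label. It was lower in 3 of 3 libraries, by a log2 difference of -0.09 (exact two-sided permutation p = 0.1; adjusted 0.15). Dhx58 to Ddx58 stood at 0.450, 0.430 and 0.403 under the knockout label and at 0.441, 0.458 and 0.450 under the wild-type label, groups that overlap (log2 difference -0.07; exact two-sided permutation p = 0.2; adjusted 0.2).

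**Figure D4:**
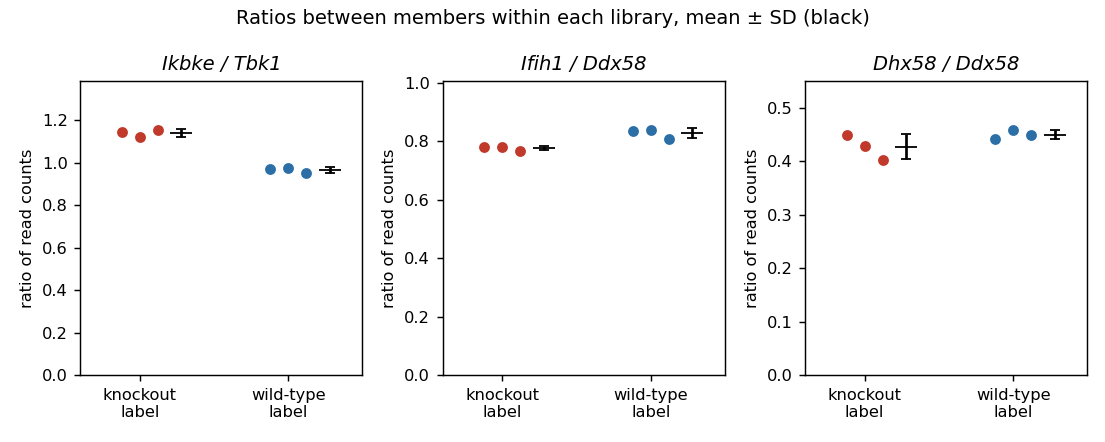
Ratio of read counts between members within each library (vertical axes, from 0) for the libraries labelled knockout (red, left) and wild-type (blue, right), with mean and SD in black. The ratio of Ikbke to Tbk1 lies between 1.12 and 1.15 under the knockout label and between 0.950 and 0.975 under the wild-type label, while the ratio of Dhx58 to Ddx58 overlaps between them.

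Among the members, the profiles of Ifih1 and Ikbke over the 6 libraries were closest, with a root mean square difference of 0.02 between their centred log2 CPM, and those of Ddx58 and Tbk1 were farthest apart, at 0.16. Over 11180 other protein-coding genes, the profile nearest to Ddx58 was that of Arhgap45, with a root mean square difference of 0.01, followed by the guanylate-binding protein gene Gbp9. Plekha2 and the interferon receptor gene Ifnar1 were nearest to Ifih1. For Dhx58 they were Dgkz, a diacylglycerol kinase gene, and Dock4. Chd3, a chromatin remodeller gene, was nearest to Mavs. Abi1 and Cpne3 were nearest to Tbk1, and Dst and Dennd4b to Ikbke. With only 2 labels such likeness mostly means a difference of like size.

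Across the rest of the pathway the picture was mixed. Of 200 other genes of sensing and its regulation, 171 could be tested, and 39 (22.8%) were called higher and 44 (25.7%) lower by edgeR in the libraries labelled knockout, where 21.6 and 19.2% of all tested genes were. Their median log2 difference was -0.02. Members and lists were both chosen with earlier results of these data known, so the contrast between them is description only.

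Cofactors and regulators of the RNA helicases split evenly, with 9 of 33 tested genes higher and 9 lower. Eif2ak2, the kinase PKR that double-stranded RNA activates, was at 214 ± 2.67 CPM under the knockout label and 165 ± 3.17 CPM under the wild-type label (SD, n = 3 each; log2 difference 0.37), close in size to the helicases. Ddx60, a helicase that promotes RIG-I signalling, was higher by 0.30 and Ankrd17 by 0.21 on the log2 scale, and Ankrd17 by 0.11 once trends with transcript GC content and length had been removed. Nop53, a nucleolar protein gene, was lower by a log2 difference of -0.26. Trim25, the ubiquitin ligase best known as an activator of RIG-I, was at 333 ± 5.40 CPM under the knockout label and 306.5 ± 4.95 CPM under the wild-type label (SD, n = 3 each), a log2 difference of 0.12 that shrank to 0.07 with those trends removed. All 5 were called by edgeR, Trim25 at the highest adjusted p = 0.000252, and with the assumed coefficient of variation of 0.1 only Eif2ak2 was.

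Of 34 tested partners and regulators of MAVS 6 were called higher and 11 lower. Nlrc5, a NOD-like receptor gene known for driving MHC class I and for restraining MAVS-linked signalling, stood at 124 ± 2.70 CPM under the knockout label and 86.1 ± 3.21 CPM under the wild-type label (SD, n = 3 each; log2 difference 0.53). The antibody receptor and ubiquitin ligase gene Trim21 and the protease gene Casp8 were higher by 0.47 and 0.33. C1qbp, a mitochondrial protein gene, was lower (log2 difference -0.23). So was Traf3, the ubiquitin ligase that links MAVS to TBK1, at 75.6 ± 2.19 CPM in knockout-labelled and 86.7 ± 3.04 CPM in wild-type-labelled libraries (SD, n = 3 each; log2 difference -0.20, SE 0.05; edgeR adjusted p = 0.000147). With the assumed coefficient of variation of 0.1, C1qbp and Traf3 were no longer called (edgeR adjusted p = 0.211 and 0.312).

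In the complex around TBK1 and IKK-epsilon the scaffold genes moved in both directions. Of 33 tested genes of that complex and its substrates 7 were higher and 11 lower. Tank, the scaffold that gave TBK1 its name, was at 85.5 ± 4.31 CPM in the knockout-labelled libraries and 101 ± 6.73 CPM in the wild-type-labelled ones (SD, n = 3 each; log2 difference -0.24; edgeR adjusted p = 2.71e-06), whereas the scaffold genes Tbkbp1 and Azi2 were higher by 0.30 and 0.15. Sike1, a suppressor of IKK-epsilon, and the adaptor gene Optn were lower, with log2 differences of -0.23 and -0.37. The autophagy receptor gene Sqstm1, whose product TBK1 phosphorylates, was lower, at 2324 ± 15.4 CPM under the knockout label against 3094 ± 46.4 CPM under the wild-type label (SD, n = 3 each; log2 difference -0.41). Rela, an NF-kappaB subunit gene, and Tnfaip3, which encodes the brake A20, were lower with log2 differences of -0.47 and -0.29. Among interferon regulatory factors that these kinases act on, Irf7 was at 428 ± 0.883 CPM under the knockout label and 363 ± 0.545 CPM under the wild-type label (SD, n = 3 each; log2 difference 0.24) and Irf5 was higher by 0.40. Irf3 was at 30.2 ± 1.77 CPM under the knockout label and 31.5 ± 0.834 CPM under the wild-type label, a log2 difference of -0.06 that was within the spread (SE 0.07; edgeR adjusted p = 0.520). With the assumed coefficient of variation of 0.1 the calls of Tank, Tnfaip3 and Irf7 were lost (edgeR adjusted p = 0.193, 0.0845 and 0.180).

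The DNA branch was called higher in 7 and lower in 8 of 39 tested genes. Ifi204, a p200 family DNA sensor gene, was at 571 ± 11.8 CPM under the knockout label and 464 ± 7.23 CPM under the wild-type label (SD, n = 3 each; log2 difference 0.30). Zbp1, a sensor of Z-form nucleic acid, Npc1 and the DNA-binding kinase gene Prkdc were higher by 0.23, 0.19 and 0.53. Ifi204, Zbp1 and Npc1 lost their calls with the assumed coefficient of variation of 0.1 (edgeR adjusted p = 0.0687, 0.203 and 0.318). Tmem173, which encodes STING, stood at 30.3 ± 1.54 CPM under the knockout label and 23.6 ± 1.43 CPM under the wild-type label (SD, n = 3 each; log2 difference 0.36, SE 0.08; edgeR adjusted p = 3.88e-05). Mb21d1, which encodes the cyclic GMP-AMP synthase upstream of STING, was at 24.8 ± 3.0 CPM under the knockout label and 23.7 ± 1.08 CPM under the wild-type label, a log2 difference of 0.06 whose 95% interval ran from -0.10 to 0.22 (edgeR adjusted p = 0.593).

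Genes that remove or edit nucleic acids, the functional neighbours of Trex1, were higher in 6 and lower in 5 of 27 tested cases. Samhd1, which destroys deoxynucleotides, and Adar, which edits double-stranded RNA, were higher by 0.35 and 0.30, and the ubiquitin-like modifier gene Isg15 by 0.47. The call of Adar was lost with the assumed coefficient of variation of 0.1 (edgeR adjusted p = 0.0792). The RNase H2 subunit genes Rnaseh2a, Rnaseh2b and Rnaseh2c, which with Trex1, Samhd1, Adar and Ifih1 are the classic genes of Aicardi-Goutières syndrome, had log2 differences of -0.15, 0.02 and 0.04 and were not called (edgeR adjusted p from 0.130 to 0.882). Lsm11, a histone mRNA processing gene linked to the same syndrome, was lower (log2 difference -0.54).

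Reads counted on the interferon genes themselves were scarce. Ifnb1, the first interferon made downstream of these kinases, had 1, 1 and 2 reads in the knockout-labelled libraries and none in the wild-type-labelled ones, counts too few for a fold or a test. No read was counted on the 13 interferon-alpha genes listed, Ifnab included. How reads matching more than 1 gene were counted is not given, so these counts of 0 cannot be read as absence of RNA. Of 8 tested receptor and signalling genes 4 were higher and 2 lower. Tyk2, a receptor-bound kinase gene, was at 124 ± 2.27 CPM under the knockout label and 81.6 ± 1.30 CPM under the wild-type label (SD, n = 3 each; log2 difference 0.61). Ifnar1 and Stat2 were higher by 0.34 and 0.35, and the other receptor chain gene Ifnar2 and the factor gene Irf9 were lower, with log2 differences of -0.14 and -0.12 (edgeR adjusted p = 0.00403 and 0.00884).

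**Figure D5:**
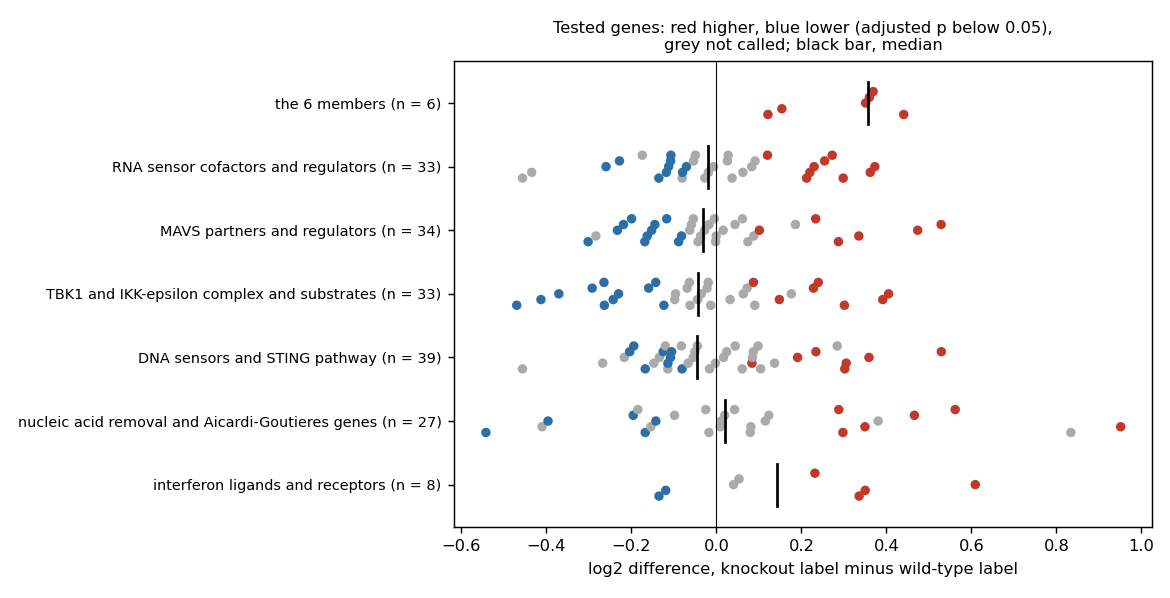
Log2 difference of each tested gene, knockout label minus wild-type label (horizontal axis), for the 6 members and 6 lists of pathway genes, red where called higher, blue where called lower and grey where not called, with the median as a black bar. The members all lie above 0 with a median of 0.36, while the medians of the lists lie between -0.04 and 0.14.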

How the data were processed

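RNA-seq read counts of 6 libraries were used, grouped by genotype label (3 Tet2 knockout, 3 wild-type). The labels' protocols name the RNeasy Plus Mini kit for extraction and NEBNext Ultra for library construction. The submitters' processing notes name fastp, STAR, featureCounts and mm10, and versions, strand setting and options are not given in the sources used here. The deposited counts are whole reads per gene, not normalised, and the deposited exonic length per gene served as the other input for RPKM. Counts were fitted in R 4.3.3 with edgeR 4.0.16 (filterByExpr minimum count 10, TMM scaling, robust quasi-likelihood test, genotype label as the only term, prior count 0.125, Benjamini-Hochberg adjustment over 13175 genes, threshold 0.05). Alternatives used DESeq2 1.42.0, limma 3.58.1 and the settings named below. Ratios were compared by exact permutation.

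The members and the 6 pathway lists were chosen with earlier results of these data known. The text names Tet2, the members, 10 fixed genes, up to 4 called genes per list with the smallest p, and the 2 nearest profiles per member. Genes outside that rule (Tmem173, Mb21d1, Tbkbp1, Azi2, the RNase H2 genes, Lsm11, Sike1, Optn, Ifnar2, Irf9 and overlapping or marker genes) were chosen after their values were seen. Some genes picked by this rule go unreported. Figures were drawn in Python 3.11.15 with matplotlib 3.10.9.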

Additional observations from a re-analysis of the deposited data

How the results depend on the processing

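The 16 alternatives were RLE and upper-quartile scaling, DESeq2, limma-voom, no filter, a floor of 1 CPM in 3 libraries, a table of protein-coding genes alone, the replicate block, each of 6 libraries left out, a biological coefficient of variation set to 0.1 and, added after the data had been seen, removal of GC and length trends. All kept the direction of the 6 tested members. Ddx58, Ifih1, Dhx58 and Ikbke were called under each of them. With the assumed coefficient of variation, against an estimate of 2.63% from these libraries, 1222 genes were called higher and 663 lower, as were 15 and 5 pathway genes and 4 members. Leaving out a library gave 2580 to 2700 genes higher and 2138 to 2477 lower, 5 to 6 members higher, and 36 to 39 pathway genes higher and 34 to 47 lower. The log2 difference of the ratio ran from 0.23 to 0.25 for Ikbke to Tbk1, from -0.11 to -0.08 for Ifih1 to Ddx58 and from -0.11 to -0.03 for Dhx58 to Ddx58. Same-numbered libraries did not deviate together (r = 0.00453, -0.00370 and -0.0187 across genes), and not every library correlated best with its own number. With the replicate block 2789 genes were called higher and 2470 lower, 6 members among the higher. Trends with GC and length moved Dst, near Ikbke in profile, to 0.11 on the log2 scale, and Tet2 to 0.11 and Chd3 to 0.10; the cause was not tested. For pathway genes named by the rule, the calls lost at the assumed coefficient of variation held under the other 15 alternatives. This does not extend to all pathway genes, of which the main fit called 39 higher and 44 lower. DESeq2 called 36 higher and 33 lower, and the fit with no filter on low counts 37 and 39. Genes named outside the rule were not recomputed under the alternatives. Ifnb1, with at most 2 reads in a library, and Trex1, with none, could not be tested.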
